A study of Mus musculus with 12 samples.

Results

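The carnitine shuttle and mitochondrial beta-oxidation were followed through 10 genes, Cpt1a, Cpt1b, Cpt2, Acadvl, Acadl, Acadm, Hadha, Hadhb, Decr1 and Eci1, in C57BL/6 mice aged 4 weeks, with liver and quadriceps muscle measured for each. The genes were taken by symbol, with every probe set of the array that the annotation of the series pairs with that symbol alone. This gave 16 probe sets for 9 of the 10 genes, out of 45101 probe sets and 18194 genes with a probe set of their own. The only probe set of Cpt1b, the carnitine palmitoyltransferase of muscle, is shared in the annotation with its neighbour Chkb and with Gm44502, so that no value could be given to Cpt1b. All dams ate a normal protein diet with 20% casein. Those of the NP group drank water, and those of the NP+tau group drank 1% taurine from day 1 of pregnancy. Each diet group had 3 samples per tissue. By the study's methods, no 2 pups shared a dam, and each animal gave both tissues. No transgene is named in the labels. Expression was measured on whole tissue, in which fewer cells of a type and less RNA per cell cannot be told apart.

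Long-chain fatty acids are activated to acyl-CoA and cross into mitochondria as carnitine esters. Cpt1 on the outer membrane makes the ester and is held back by malonyl-CoA, a carrier takes it across the inner membrane, and Cpt2 on the inside turns it back into acyl-CoA. The chain is then shortened in repeated cycles by acyl-CoA dehydrogenases (Acadvl for very long, Acadl for long and Acadm for medium chains) and, for long chains, by the trifunctional protein made of Hadha and Hadhb, while Decr1 and Eci1 prepare unsaturated chains for the same cycle. In liver the product feeds ketone bodies and supports glucose synthesis, and in muscle it is burned for contraction.

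Values are log2 expression values from RMA, a method that condenses the probes of a probe set into 1 value, normalised by the authors within each tissue. The number of arrays limits the precision, and levels were tested between groups of a tissue only. A probe set was tested in a tissue if its highest value reached the 35th percentile of such values (4.60 in liver and 4.49 in muscle), which left 29274 probe sets in each. For every gene the brightest probe set stood for the gene, and all 9 genes passed in both tissues. In all NP samples Xist, the transcript of the inactive X chromosome, was high (11.6 to 11.8 in liver and 10.8 to 11.1 in muscle), although the methods describe both sexes in every group. In NP+tau, Xist was high in replicate 1 and low in replicates 2 and 3 (5.07 to 5.96 in both tissues), where the Y-linked Eif2s3y was high. Diet and sex are therefore partly confounded. The liver arrays of NP replicate 1 and NP+tau replicate 1 stood apart from the others, with a median absolute deviation from the median array of 0.169 and 0.450 against 0.077 to 0.112. In muscle this deviation was 0.075 to 0.188.

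In NP+tau muscle, 7 of the 9 genes had a higher mean than in NP, and Cpt2, Acadvl and Hadhb had no overlap between the groups. The median difference over the 9 genes was 0.36 on the log2 scale, against 0.013 over all probe sets, of which 51.8% had a higher mean in NP+tau. None of the 9 passed limma's test at an adjusted p under 0.05, nor did any probe set of the array (0%). At an unadjusted p under 0.05, 3 of the 9 were higher and 0 lower, beside 3.72% of all probe sets higher and 2.4% lower. The 3 genes without overlap stood beside 7.33% of all probe sets that separated upwards and 7.77% downwards. NP replicates 1 and 2 were each among the lowest 2 muscles for 7 of the 9 genes, and NP+tau replicate 1 was the highest sample for 6 of the 9. Without NP replicate 1, or without NP+tau replicate 1, 1 gene was at an unadjusted p under 0.05. Centring each array on its median turned the difference of Acadm to -0.015 and left 2 genes at an unadjusted p under 0.05 and 2 without overlap. The share of all probe sets was not taken for these reduced or centred fits.

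**Figure D1:**
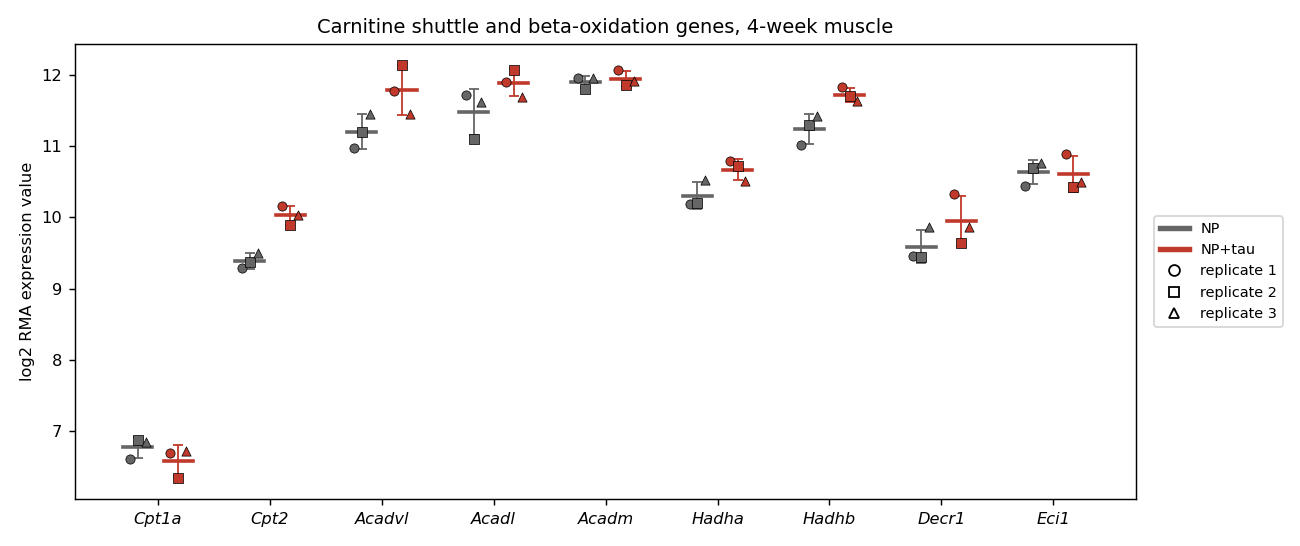
Log2 RMA values (vertical axis) in muscle for the 9 measured genes of the carnitine shuttle and beta-oxidation. NP is grey and NP+tau red, each symbol is 1 of 3 replicates, horizontal lines are means and whiskers the SD. The groups lie apart for Cpt2 and Hadhb, touch for Acadvl and overlap for the other genes, and heights of different genes are not comparable.

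Cpt2, the inner-membrane enzyme that ends the shuttle, was at 9.29, 9.38 and 9.51 in the NP muscles and at 10.17, 9.89 and 10.03 in the NP+tau muscles. Every NP+tau value lay above every NP value. The means were 9.39 ± 0.11 and 10.03 ± 0.14 (SD, n = 3), a difference of 0.64 (standard error 0.14, 95% confidence interval 0.30 to 0.98, adjusted p = 0.707 from limma over all probe sets), or 1.56-fold. Because 3 samples against 3 allow no p under 0.1 in a two-sided exact permutation test, the value of 0.1 obtained for Cpt2 is the smallest possible. Cpt2 was among the genes that the study selected on these same muscle arrays, so its separation is not independent evidence. NP+tau replicate 1, the sample with Xist as high as in NP, was the highest, and with this sample as the only NP+tau muscle the difference was 0.78. The other Cpt2 probe set was dim in both tissues (3.47 to 3.91 in muscle) and was not tested.

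The start-site window of Cpt2 is shown because Cpt2 had the largest difference in muscle among the probe sets that stand for the members (RefSeq, GRCm38.p6, chr4:107923540-107923839, minus strand). It runs from 250 bases before the transcript start to 50 after it, so that base 251 is the start, and capitals mark the GC box GGGCGG, a site of Sp1 factors, on either strand.
Cpt2: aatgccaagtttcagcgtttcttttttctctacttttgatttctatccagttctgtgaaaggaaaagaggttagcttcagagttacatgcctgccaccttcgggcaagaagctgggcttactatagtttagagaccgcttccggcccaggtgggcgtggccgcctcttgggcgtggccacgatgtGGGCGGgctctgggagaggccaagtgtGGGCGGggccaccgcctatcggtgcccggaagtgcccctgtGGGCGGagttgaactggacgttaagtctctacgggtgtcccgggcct
The window held 3 GC boxes, at -65, -38 and 3 bases from the start. Windows were listed for 8 of the 10 genes, all but Cpt1b and Decr1, and 6 of these held a GC box, as did 35.7% of the 32851 windows of the table.

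Acadvl, the dehydrogenase for the longest chains, was at 10.97, 11.20 and 11.45 in NP and at 11.78, 12.14 and 11.45 in NP+tau muscle. The groups touched, since NP replicate 3 and NP+tau replicate 3 were equal at the precision printed. Their means differed by 0.59 (standard error 0.22, 95% confidence interval 0.063 to 1.11, adjusted p = 0.707). Acadl, which acts on long and branched chains, was at 11.71, 11.11 and 11.62 in NP and 11.91, 12.07 and 11.69 in NP+tau. Here NP+tau replicate 3 lay below NP replicate 1, and the difference was 0.41 (standard error 0.21), or 0.22 without NP replicate 2. Acadm, the medium-chain dehydrogenase, lay between 11.81 and 11.96 in NP muscle and between 11.86 and 12.06 with taurine. Its difference was 0.042 (standard error 0.14, 95% confidence interval -0.28 to 0.36).

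Both subunits of the trifunctional protein had a higher mean in NP+tau muscle. Hadhb, the thiolase subunit, was at 11.01, 11.30 and 11.43 in NP and at 11.83, 11.70 and 11.63 in NP+tau muscle, without overlap. The difference was 0.47 (standard error 0.16, 95% confidence interval 0.096 to 0.85, adjusted p = 0.707). Hadha, which carries the hydratase and the dehydrogenase activities, was at 10.19, 10.21 and 10.52 in NP and 10.79, 10.72 and 10.51 in NP+tau. Only NP replicate 3 and NP+tau replicate 3 overlapped, and the difference was 0.36 (standard error 0.16). Of the other Hadhb probe sets, one also had a higher mean in NP+tau (difference 0.44, standard error 0.23), whereas the dimmest had a lower mean (-0.34, standard error 0.21). With the mean over the 3 probe sets, the difference of Hadhb was 0.19 (standard error 0.14).

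Hadha and Hadhb lie head to head on chromosome 5 with transcript starts 273 bases apart. Their start-site windows (RefSeq, GRCm38.p6) are shown because both genes had a higher mean in NP+tau muscle and share 228 bases of window, in which each is written on its own strand: Hadha on the minus strand at chr5:30154931-30155230 and Hadhb on the plus strand at chr5:30155003-30155302. Capitals again mark GGGCGG or its reverse complement.
Hadha: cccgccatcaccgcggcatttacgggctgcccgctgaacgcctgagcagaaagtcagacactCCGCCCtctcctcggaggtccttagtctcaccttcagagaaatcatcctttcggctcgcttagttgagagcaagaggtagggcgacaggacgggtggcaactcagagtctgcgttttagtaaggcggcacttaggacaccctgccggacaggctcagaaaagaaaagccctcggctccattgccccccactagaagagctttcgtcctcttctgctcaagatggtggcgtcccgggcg
Hadhb: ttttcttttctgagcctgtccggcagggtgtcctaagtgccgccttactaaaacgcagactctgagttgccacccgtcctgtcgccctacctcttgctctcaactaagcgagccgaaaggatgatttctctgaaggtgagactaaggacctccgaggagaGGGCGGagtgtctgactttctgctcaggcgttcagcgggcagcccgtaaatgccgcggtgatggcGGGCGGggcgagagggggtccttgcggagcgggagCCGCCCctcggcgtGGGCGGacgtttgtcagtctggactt
The window of Hadhb held 4 GC boxes and that of Hadha 1, and the latter, at -188 from the Hadha start, is the same site as the Hadhb box at -90 from the Hadhb start. Among the 8 windows, the nuclear receptor motif AGGTCA was found in those of Acadm, Acadvl and Cpt1a (16.3% of all windows), and CCAAT in that of Cpt1a (37.4%). The letters TCAAGGTCA of the estrogen-related receptor site, which contain AGGTCA (0.423% of all windows), the E-box CACGTG (7.15%), TATAAA (13.6%) and TGACGTCA (1.79%) were in none of the 8. Both strands were searched.

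**Figure D2:**
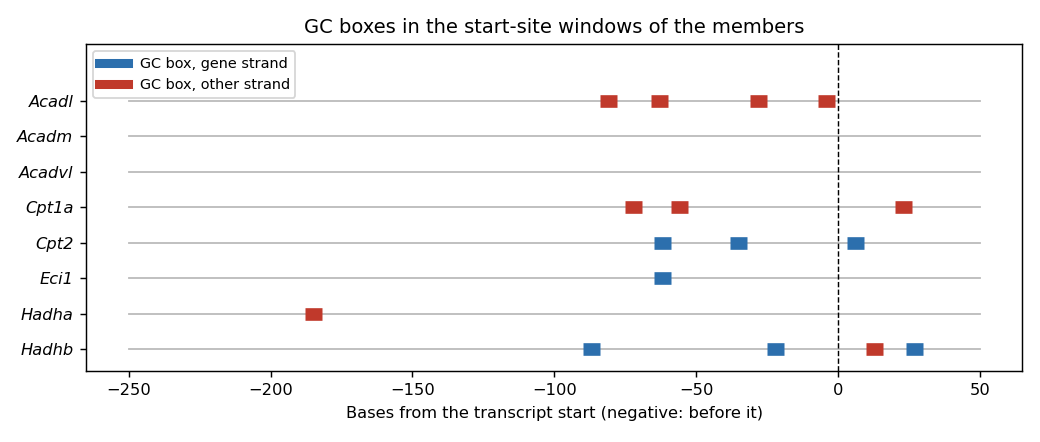
Positions of the GC box GGGCGG on the gene's own strand (blue) or the other strand (red) in the start-site windows of 8 members; the horizontal axis gives bases from the transcript start (dashed line), negative before it. Windows of 6 genes hold 1 to 4 boxes and those of Acadm and Acadvl none.

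Decr1 and Eci1 handle the double bonds of unsaturated chains. In muscle Decr1, the dienoyl-CoA reductase, was at 9.46, 9.45 and 9.86 in NP and at 10.33, 9.64 and 9.87 in NP+tau (difference 0.35, standard error 0.22). NP replicate 3 reached into the NP+tau range. Its other, dimmer probe set gave a difference of 0.91 (standard error 0.35, adjusted p = 0.707), with NP+tau replicate 1 the highest at 9.53. Without this sample the difference of the brighter probe set was 0.16, and the mean over both probe sets gave 0.63 with all samples. Eci1, the enoyl-CoA isomerase, overlapped widely, with 10.44 to 10.77 in NP against 10.42 to 10.89 in NP+tau (difference -0.030, standard error 0.18).

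Cpt1a, the liver form of the entry enzyme, was the only member besides Eci1 with a lower mean in NP+tau muscle. It was at 6.61, 6.88 and 6.85 in NP and 6.69, 6.34 and 6.73 in NP+tau (difference -0.19, standard error 0.17, and -0.067 without NP+tau replicate 2), and the groups overlapped. Its other probe sets lay between 3.32 and 4.58 in muscle, 1 of them below the limit for testing. Cpt1a was the gene whose level differed most between the tissues: in NP its probe set was at 11.38 ± 0.62 (SD, n = 3) in liver and 6.78 ± 0.15 (SD, n = 3) in muscle. These levels were set across tissues that were normalised separately and were not tested. For the other 8 genes, the NP mean in liver minus that in muscle lay between -0.028 for Eci1 and 1.96 for Decr1, with Cpt2 at 1.38.

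In NP+tau liver, 8 of the 9 genes had a higher mean than in NP, but by small amounts for most. The median difference was 0.067, against -0.039 over all probe sets, of which 45.8% had a higher mean in NP+tau. None passed limma's test at an adjusted p under 0.05, again with 0% over the array. The count at an unadjusted p under 0.05 was 0 of 9, beside 0.7% of all probe sets higher and 3.99% lower. Only Eci1 had no overlap, beside 5.73% of all probe sets that separated upwards and 9.11% downwards. Centring each array on its median raised all liver differences by 0.11, which turned Hadhb, the 1 gene with a lower mean, to 0.10. NP replicate 1 was among the lowest 2 livers for all 9 genes, and NP+tau replicate 1 was the lowest for the 4 genes Acadvl, Acadl, Acadm and Hadhb.

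**Figure D3:**
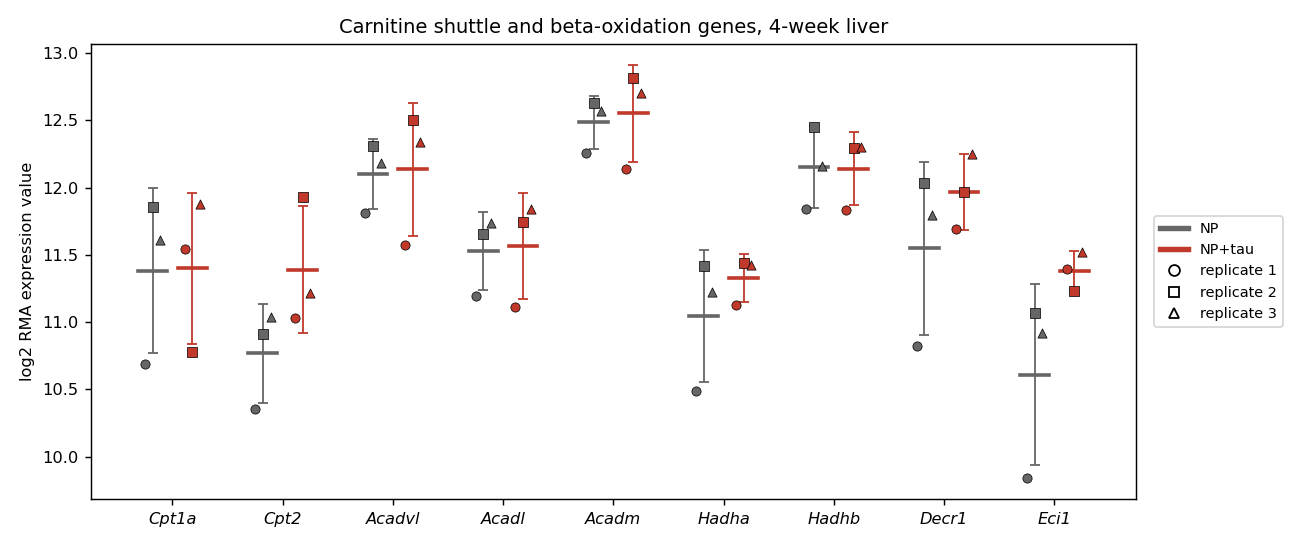
Log2 RMA values (vertical axis) in liver for the same 9 genes. NP is grey and NP+tau red, each symbol is 1 of 3 replicates, horizontal lines are means and whiskers the SD. Only Eci1 is without overlap, and NP replicate 1 (grey circle) lies at or near the bottom for every gene; heights of different genes are not comparable.

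Eci1 was at 9.84, 11.07 and 10.92 in NP and reached 11.39, 11.23 and 11.52 with taurine. NP replicate 1 was more than 1 unit below the other NP livers. The difference was 0.77 (standard error 0.34, 95% confidence interval -0.021 to 1.57, adjusted p = 0.718, exact permutation p = 0.1), and without NP replicate 1 it was 0.39. The NP+tau values stayed above those of the remaining NP livers.

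The difference of Cpt2 in liver was 0.62 (standard error 0.30, 95% confidence interval -0.094 to 1.34, adjusted p = 0.718). It was at 10.35, 10.92 and 11.04 in NP and at 11.03, 11.93 and 11.22 in NP+tau liver. The groups overlapped slightly, at NP replicate 3 and NP+tau replicate 1. Without NP+tau replicate 2, the highest liver, the difference was 0.35, and without NP replicate 1 it was 0.41. With the Xist level as a covariate it was 0.27, and with NP+tau replicate 1 as the only NP+tau liver 0.26.

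Of the double-bond enzymes, Decr1 was at 10.82, 12.03 and 11.80 in NP and 11.69, 11.96 and 12.25 in NP+tau liver (difference 0.42, standard error 0.34). NP replicate 1 again set the low mean of NP, and without it the difference was 0.055. The dimmer Decr1 probe set had a wider range, from 6.49 in NP replicate 1 to 9.32 in NP+tau replicate 2, and a difference of 1.08 (standard error 0.59). The mean over both probe sets gave 0.75. Hadha was at 10.49 in NP replicate 1 and at 11.13 to 11.44 in all other livers (difference 0.28, standard error 0.27, and 0.0069 without NP replicate 1).

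The other 5 genes had differences between -0.0084 and 0.067, with 95% confidence intervals that reached as far as -0.92 and 0.95 (both Cpt1a). Acadvl was at 11.81, 12.31 and 12.18 in NP and 11.57, 12.50 and 12.34 in NP+tau liver (difference 0.034, standard error 0.29). NP+tau replicates 2 and 3 lay above all NP livers and NP+tau replicate 1 below them. The same arrangement held for Acadl, with 11.20 to 11.73 in NP and 11.12, 11.75 and 11.84 in NP+tau, and for Acadm, with 12.26 to 12.63 in NP and 12.14, 12.81 and 12.70 under taurine. Their differences were 0.037 (standard error 0.26) and 0.067 (standard error 0.23). Hadhb ranged over 11.84 to 12.45 in NP against 11.83 to 12.30 in NP+tau (difference -0.0084, standard error 0.23), and its other probe sets differed by 0.20 and -0.37. Cpt1a was at 10.69, 11.85 and 11.61 in NP and 11.54, 10.78 and 11.88 in NP+tau (difference 0.015, standard error 0.39). Its 2 other probe sets had differences of -0.14 and -0.068, and in all 3 the lowest values were those of NP replicate 1 and NP+tau replicate 2.

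Without NP+tau replicate 1, 6 of the 9 genes were higher in liver without overlap, beside 11.6% of all probe sets higher and 12% lower in this comparison of 3 against 2, and the median difference was 0.32. The count was also 6 without both NP replicate 1 and NP+tau replicate 1, beside 17.5% of all probe sets higher and 16.6% lower, and the median was then 0.16, against -0.047 without NP replicate 1 alone. Without NP+tau replicates 2 and 3, the livers with low Xist, 4 genes lay lower and 1 higher in the remaining NP+tau liver than in every NP liver. In this comparison of 1 sample against 3, 47.8% of all probe sets were lower and 31.8% higher without overlap. In muscle the same comparison had 8 of 9 genes higher in NP+tau replicate 1, beside 25.6% of all probe sets higher and 25.2% lower, and a median of 0.48. No gene passed at an adjusted p under 0.05 in these fits, and the part of sex and of the single arrays in the differences was not tested.

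The difference between tissues in the effect of taurine was tested as an interaction over the 25622 probe sets tested in both. This fit took the arrays as independent, although each animal gave both tissues. An alternative with the animal as a random block is given below. None of the 9 genes passed limma's test at an adjusted p under 0.05 (0% of all probe sets), and 0 of the 9 were at an unadjusted p under 0.05, beside 7.8% of all. Eci1 was the farthest apart, with a difference in muscle 0.80 below that in liver (standard error 0.40, adjusted p = 0.542). Without the NP animal of replicate 1 the value, muscle minus liver, was -0.52. For Acadvl and Hadhb the muscle difference was larger by 0.55 (standard error 0.38) and 0.48 (standard error 0.29), or by 0.28 and 0.27 without the NP+tau animal of replicate 1. For Cpt2 both tissues gave nearly the same value (0.019, standard error 0.35).

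**Figure D4:**
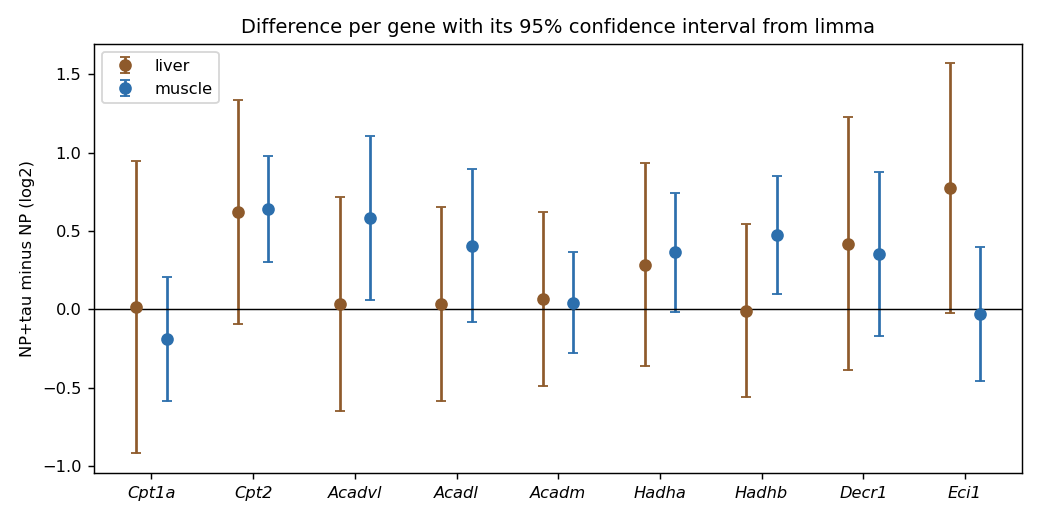
Difference between NP+tau and NP on the log2 scale (vertical axis) for each gene in liver (brown) and muscle (blue), with the 95% confidence interval from limma, not adjusted for the number of probe sets. In muscle the intervals of Cpt2, Acadvl and Hadhb lie above 0, and in liver every interval includes 0.

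Other genes of the pathway in muscle were taken from lists of symbols, and none of them passed at an adjusted p under 0.05. For fatty acid uptake and activation, 6 of 9 tested genes of the 13 listed had a higher mean in NP+tau (median 0.22). At an unadjusted p under 0.05 there was 1 gene, beside 3.72% of all muscle probe sets higher and 2.4% lower. That gene was Fabp3, the fatty acid binding protein of muscle, at 11.02, 11.56 and 12.24 in NP and 12.89, 12.59 and 12.46 in NP+tau (difference 1.04, standard error 0.31, adjusted p = 0.707). Its groups did not overlap, beside 7.33% of all probe sets that separated upwards and 7.77% downwards. The acyl-CoA synthetase Acsl6 differed by 0.90 (standard error 0.40) and the fatty acid transporter Slc27a1 by -0.48 (standard error 0.24). For carnitine transport and acyl transfer, 5 of 9 tested genes had a higher mean (median 0.30). Of these 5, Slc22a4 was at 3.93 to 4.13 in NP and reached the limit for testing of 4.49 only in NP+tau replicate 2, at 5.06. Bbox1, with a lower mean, reached it only in NP replicate 2, at 4.60. The count and the median therefore depend in part on the filter. The carnitine-acylcarnitine carrier Slc25a20, which links Cpt1 to Cpt2, differed by 0.41 (standard error 0.19), the carnitine acetyltransferase Crat by 0.30 (standard error 0.16) and Tmlhe of carnitine synthesis by 0.30 (standard error 0.17). Without NP replicate 1 the differences of Acsl6, Slc27a1 and Slc25a20 were 0.45, -0.26 and 0.25, and the medians of both lists were 0.11 and 0.072. Without NP+tau replicate 1 that of Tmlhe was 0.14.

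Of 14 tested genes among the other enzymes of mitochondrial beta-oxidation, 10 had a higher mean in NP+tau muscle (median 0.26). The acyl-CoA dehydrogenase family member Acad11 was the 1 gene at an unadjusted p under 0.05 (difference 0.40, standard error 0.16). Over all muscle probe sets, 3.72% were higher and 2.4% lower at this p. The short-chain dehydrogenase Acads differed by 0.45 (standard error 0.21) and Etfdh, which passes electrons from the dehydrogenases to coenzyme Q, by 0.36 (standard error 0.18). Of the ketone body enzymes 3 could be tested: Oxct1, which starts ketone use, differed by 0.77 (standard error 0.33), Bdh1 by 1.21 (standard error 0.68) and Acat1 by 0.0060 (standard error 0.19). Bdh1 was at 7.53 in NP+tau replicate 2 against 4.22 to 5.10 in all other muscles, and its difference was 0.36 without this sample. The malonyl-CoA switch and the regulators were evenly split, with 8 of 16 higher and a median of 0.039. Prkaa1, a catalytic subunit of the AMP-activated kinase, was the 1 regulator at an unadjusted p under 0.05 (difference 0.79, standard error 0.24). It was at a dim 4.66 to 4.88 in NP, and the array-wide 3.72% higher stands beside this count as well. Hnf4a differed by -0.32 (standard error 0.15) and the fatty acid receptor Ppara by -0.48 (standard error 0.34). Without NP replicate 1 the differences of Acads, Oxct1 and Ppara were 0.29, 0.39 and -0.11. That of Acat1 lay between -0.14 and 0.11 when each sample was left out in turn.

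In liver, 10 of 12 tested genes of fatty acid uptake and activation had a higher mean in NP+tau (median 0.12), 6 of 7 of carnitine transport and acyl transfer (median 0.38), and 10 of 15 of the other beta-oxidation enzymes (median 0.21). None of these was at an unadjusted p under 0.05. Eci3, counted among the 10 higher of the other beta-oxidation enzymes, was dim, at 4.06 to 4.35 in NP liver. It reached the limit for testing only in NP+tau replicate 1, at 4.71, so its entry depended on the group where it was higher. The count and the median of that list therefore depend in part on the filter. The binding protein Fabp1 differed by 0.57 (standard error 0.36), the very long-chain acyl-CoA synthetase Slc27a2 by 0.53 (standard error 0.35) and Acsl4 by -0.39 (standard error 0.33). Slc25a20 was at 10.72, 11.44 and 11.37 in NP and 12.10, 11.37 and 11.57 in NP+tau liver (difference 0.51, standard error 0.28). NP+tau replicate 1, lowest for 4 of the members, was the highest liver for this carrier. Crat differed by 0.61 (standard error 0.34), Bbox1 of carnitine synthesis by 0.58 (standard error 0.34), the thioesterase Acot2 by 0.58 (standard error 0.30), Etfdh by 0.45 (standard error 0.27) and the hydroxyacyl-CoA dehydrogenase Hadh by 0.38 (standard error 0.28). Most of these values rested on NP replicate 1. Without it they were 0.15 for Fabp1, 0.12 for Slc27a2, 0.28 for Slc25a20, 0.29 for Crat, 0.20 for Bbox1, 0.18 for Etfdh and 0.12 for Hadh, and the list medians were 0.071, 0.20 and -0.019. Without NP+tau replicate 1, Acsl4 was at -0.039, Slc25a20 at 0.30 and Hadh at 0.24. Crat was at 0.41 without NP+tau replicate 2, and Acot2 at 0.88 without NP replicate 2.

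Regulators in liver had the opposite sign of median, -0.12, with 7 of 15 higher. Ppargc1a, a coactivator of oxidative genes, was at 7.85, 7.99 and 7.24 in NP and 6.08, 5.38 and 7.16 in NP+tau liver. The groups did not overlap, and the difference was -1.49 (standard error 0.45, adjusted p = 0.718), the 1 regulator at an unadjusted p under 0.05. Over all liver probe sets, 3.99% were lower at this p and 9.11% separated downwards. Acacb, which makes the malonyl-CoA that restrains Cpt1, differed by 1.40 (standard error 0.70) and Pdk4, which spares glucose when fat is burned, by -1.14 (standard error 0.57). Acacb was at 0.80 without NP replicate 1 and Pdk4 at -0.49 without NP+tau replicate 1, without which the list median was 0.044. Of the 3 ketone body enzymes tested, Oxct1 differed by -0.55 (standard error 0.36), Acat1 by 0.37 (standard error 0.40) and Bdh1 by 0.27 (standard error 0.44). Without NP replicate 1 these were -0.19, -0.095 and -0.18. Without NP+tau replicate 3, Bdh1 was at 0.041.

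No marker of another cell type passed at an adjusted p under 0.05 in either tissue. In liver all 14 macrophage markers had a lower mean in NP+tau, 11 of them at an unadjusted p under 0.05 (3.99% of all probe sets were lower at this p), with list means of 8.78 to 9.83 in NP against 7.41 to 8.35 in NP+tau, and 9 of 10 neutrophil markers were lower, with a list mean of 8.41 in NP replicate 1 against 4.91 to 6.21 elsewhere. The 9 hepatocyte markers tested had a mean of 12.93 in NP replicate 1 and 13.41 to 13.74 in the others. This low mean rested mainly on Cyp7a1, at 4.77 in NP replicate 1 and 8.19 to 11.24 in the others. In NP replicate 1, Fgb (14.31) and Cps1 (14.16) were at their highest, and Ttr (14.23) and Apob (12.51) at their lowest. The mean of the 9 beta-oxidation genes was lowest in NP replicate 1, at 11.03 against 11.49 to 11.94. Adipocyte markers had means of 6.65 to 8.35 in NP against 6.38 to 7.02 in NP+tau liver over 3 genes. Of these, Fabp4 differed by -1.16 and Cidec by -1.17, while Retn differed by -0.0074. Cidec was at 7.71 in NP replicate 1 against 4.36 to 5.45 in the others, and the list median was -0.27 without that sample. Adipoq, Lep and Ucp1 were below the limit for testing in liver. Markers of muscle fibres stayed dim in liver, with a list mean of 5.37 in NP+tau replicate 1 and 4.73 to 4.80 in the others. Markers of slow fibres had list means between 5.75 and 6.32 in liver, with NP+tau replicate 1 the highest. This level rested on Atp2a2, at 9.62 to 11.27, while the other slow fibre genes tested lay between 4.12 and 6.47. Of these, Myh7 reached the limit only in NP+tau replicate 1, at 5.29. In muscle, the list mean of the 11 fibre markers lay between 14.15 and 14.32. The list mean of the 7 markers of slow fibres, which rely more on fatty acids, lay between 11.22 and 11.91 in NP. In NP+tau it lay between 11.11 and 12.62, with NP+tau replicate 1 the highest. All 7 slow fibre markers had a higher mean in NP+tau (median 0.28), none at an unadjusted p under 0.05, but 1 of 7 without NP+tau replicate 1 (median -0.091). Macrophage markers had a lower mean in NP+tau muscle for 10 of 13 (median -0.36, list means of 6.02 to 6.68 in NP against 5.75 to 6.52 with taurine). Of these, 3 did not overlap, beside 7.77% of all probe sets that separated downwards. They include Cd5l (4.07 to 4.78) and Clec4f (4.71 to 5.22), which were dim, near the limit for testing of 4.49. Cd5l reached this limit only in NP samples, so its entry depended on the group where it was higher. Of the macrophage markers with a higher mean, Timd4 and Marco reached it only in NP+tau replicate 3, at 4.82 and 4.55. Adipocyte markers were lower for 4 of 6 (median -0.39, list means of 7.26 to 8.37). Lep, which had a higher mean, was at most 4.24 in NP and reached the limit only in NP+tau samples. Adipoq, at -0.76 (standard error 0.32), was the 1 marker of the lists in muscle at an unadjusted p under 0.05. Over all muscle probe sets, 2.4% were lower at this p. The hepatocyte markers were dim (list means of 5.29 to 6.15) and lower for 5 of 5 (median -0.27). Neutrophil markers had list means of 5.86 to 10.16 and a median of -0.090, which was 1.10 without NP replicate 3 and -1.26 without NP replicate 2. The part of these cells in the differences was not tested.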

How the data were processed

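RNA from liver and quadriceps muscle of 3 NP and 3 NP+tau animals was hybridised to Affymetrix mouse genome arrays. The authors deposited log2 values, made by justRMA in Bioconductor with quantile normalisation of each tissue apart. Depth does not apply, and the 6 arrays per tissue limit precision. Control probe sets (64) were removed and the brightness filter applied. The authors' removal of probes by absent calls, their gene set enrichment analysis and SAM were not repeated. NP+tau was compared with NP with limma 3.58.1 (lmFit, then eBayes; R 4.3.3), two-sided, on the whole table, with Benjamini-Hochberg adjustment over 29274 probe sets and a threshold of 0.05; scripts were tested on simulated data. In the simulated data, 2% of true differences of 1 log2 unit were called in liver and 29% in muscle. For true differences of 2 log2 units these shares were 62% and 74%. A member without a call may therefore still differ by amounts of this size. Of all probe sets, 34958 had 1 symbol, 932 several and 9211 none. The members and lists were chosen with earlier results of these data known; from each list up to 3 genes per tissue with the smallest unadjusted p are named. In the lists of macrophage, neutrophil, hepatocyte, fibre, slow fibre and adipocyte markers, as in the pathway lists, genes were matched by symbol. Samples with the same replicate number in NP and NP+tau are different animals and share only a number. Alternatives were other brightness filters, array centring, an intensity trend, array weights, Xist as a covariate, blocks, the mean over probe sets and leaving out replicates. Leaving out each replicate for the genes and markers of the lists was added after seeing the data.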

Additional observations from a re-analysis of the deposited data

How the results depend on the processing

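No member passed at an adjusted p under 0.05 in either tissue or in the interaction under any alternative run. Unless given above for the same samples, the share of all probe sets was not taken for the member counts below. Such counts cannot be read as a result about the members. Without one replicate each, the members at an unadjusted p under 0.05 were 0 to 1 in liver, 1 to 4 in muscle (1 without NP replicate 1 and 1 without NP+tau replicate 1) and 0 to 1 for the interaction; those without overlap were 1 to 6 higher in liver and 3 to 5 higher and 0 to 1 lower in muscle. The 6 in liver were found without NP+tau replicate 1, beside 11.6% of all probe sets higher and 12% lower without overlap. For muscle with 1 replicate left out, this share was not taken. The median difference was -0.047 to 0.32 in liver and 0.28 to 0.48 in muscle. In these fits the liver differences that turned sign were Cpt1a (-0.33 to 0.33), Acadvl (-0.15 to 0.32), Acadl (-0.13 to 0.26), Acadm (-0.065 to 0.27) and Hadhb (-0.16 to 0.15). In muscle they were Acadm (-0.016 to 0.086) and Eci1 (-0.17 to 0.062). For muscle minus liver they were Cpt1a (-0.39 to 0.057), Cpt2 (-0.23 to 0.36), Acadm (-0.29 to 0.15), Hadha (-0.16 to 0.30) and Decr1 (-0.40 to 0.24).

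Centring each array moved the liver differences by 0.11 (0.057 lower in muscle): 2 members were then at an unadjusted p under 0.05 and 2 without overlap in each tissue (from 0 and 1 in liver, and 3 and 3 in muscle), Hadhb was at 0.10 there, and Acadm at -0.015 in muscle. With array weights, 1 member in liver and 5 in muscle were at an unadjusted p under 0.05, with Cpt1a at -0.25 and Hadhb at 0.021 in liver and Eci1 at 0.0030 in muscle. With the Xist level as a covariate, liver Acadvl, Acadl and Acadm were at -0.60, -0.49 and -0.40, the muscle median was 0.50 and muscle Eci1 0.26, and for muscle minus liver 2 members were at an unadjusted p under 0.05, with Acadm at 0.56 and Decr1 at 0.69. With the mean over all probe sets of a gene, liver Cpt1a was at -0.064, Hadhb at 0.19 in muscle, and Decr1 at 0.63 in muscle and 0.75 in liver, and 2 muscle members were at an unadjusted p under 0.05. Without both replicates 1, 6 liver members were higher without overlap and Cpt1a was at -0.40. Without NP+tau replicates 2 and 3, chosen after seeing the data, 4 liver members were lower and 8 muscle members higher without overlap, with liver Acadvl, Acadl and Acadm at -0.53, -0.41 and -0.35 and muscle Eci1 at 0.26. The cause of these shifts was not tested.

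With the replicate number as a block, 1 member in liver (0 without it) and 1 in muscle (3 without it) were at an unadjusted p under 0.05, and with the animal as a random block 1 for the interaction; the block changed no other call. Deviations of same-numbered samples correlated between -0.11 and 0.11 in liver and between -0.27 and 0.33 in muscle. The filters and the intensity trend changed no sign.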

Other observations

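The per-sample mean of the 9 centred members was compared with every tested probe set of a single other gene over the 6 arrays of a tissue, as a description without a test. In liver the most alike were those of Acaa1b, a thiolase of peroxisomal beta-oxidation (Pearson r = 0.996), Abcd3, a peroxisomal transporter of fatty acyl groups (0.993), the peptidase Anpep (0.993), Atp5pb of ATP synthase (0.992) and Lactb2 (0.990). In muscle they were those of Orc3 (0.993), Mtfr1, a regulator of mitochondrial fission (0.992), Trappc9 (0.987), Cdc37 (0.986) and Fbxw11 (0.985). The 6 points share the array normalisation and in liver the low level of NP replicate 1.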
